A study of Mus musculus with 2 samples.

Results

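The genes described here are those that license replication origins and the gene of their inhibitor geminin: *Orc1*, *Orc2*, *Orc6*, *Cdc6*, *Cdt1*, *Gmnn*, *Dbf4* and *Cdc7*. They were chosen by name, as rows of the expression table whose Ensembl identifier maps to one of these 8 symbols. Of the 8, 7 have a row among the 10666 genes of the table, and *Cdt1* is not analysed here. The cells came from 2 replicate cultures of wild-type C57BL/6 mouse neurospheres, free-floating aggregates of neural progenitors, grown from the dorsal telencephalon at embryonic day 14.5 with 10 ng/ml EGF and 10 ng/ml bFGF. Libraries were made from single cells with a Chromium 3' kit (version 2 by the labels), and the position of each cell along the cycle, an angle in radians called the cell-cycle position, was computed by the authors. There is 1 condition, so no group is compared with another, no p-value is given, and the spread is the difference between the 2 cultures.

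Origins are licensed when the origin recognition complex (ORC), with Cdc6 and Cdt1, loads the MCM2-7 helicase onto DNA. Loading is restricted to the time between late mitosis and the start of S phase, and geminin, which binds Cdt1, is a brake that builds up after S phase has begun and is destroyed in mitosis. Loaded helicases are later activated by the Dbf4-dependent kinase, which consists of the catalytic subunit Cdc7 and its activator Dbf4. Transcripts are measured here, not proteins or loaded helicases.

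Culture 1 holds 5748 cells with a median of 19477 total UMIs and culture 2 holds 7057 cells with a median of 14637, and 48 cell barcodes occur in both. The neural progenitor markers *Nes*, *Vim* and *Fabp7* were detected in 89.8% to 100% of cells of either culture, *Pax6*, the other gene of that list with a row, in 21.1% and 23.1%, and the dorsal telencephalon genes *Emx2* and *Lhx2* in 21.1% to 45.0%. *Olig2*, a gene of the oligodendrocyte lineage, was detected in 97.3% and 91.9% of cells, whereas *Pdgfra* was detected in 8.77% and 1.81% and *Cspg4* in 11.8% and 13.7%. The neuronal genes *Dcx* and *Rbfox3* were detected in 7.34% and 1.56% and in 3.78% and 4.31%. The part of these other types in the results below was not tested. In what follows the cycle is cut into 8 arcs of 0.25π. By the Seurat stages that the authors deposited, the arc from 1.75π to 2π is 99.9% and 99.3% G1, that from 0.5π to 0.75π is 99.2% and 99.0% S, and that from 1π to 1.25π is 98.4% and 99.1% G2M (culture 1 and culture 2). These stages have no G0, and the paper groups G1 with G0 for positions outside those of S, G2 and M. The arc from 1.75π to 2π, called the G1 arc here, may therefore include non-cycling cells. The G1 arc is the most populated, with 31.1% of cells in culture 1 and 44.6% in culture 2. The arcs from 1.25π to 1.75π hold 85 and 64 cells in culture 1 and 279 and 189 in culture 2, so values there are the least precise. Depth also moves along the cycle, with medians per arc of 14110 to 22970 UMIs in culture 1 and 11880 to 17810 in culture 2, lowest in the arc from 1.25π to 1.5π.

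Promoter sequences are shown for 4 members because they differ in the cell-cycle motifs they carry, and the order of their peaks is described next. They are RefSeq sequences on GRCm38.p6, written 5' to 3' on the strand of the gene, with motif matches in capitals. Of the 7 members measured, 6 have a promoter in the table used, and *Gmnn* has none there. The motifs searched, on both strands of windows from 250 bases before to 50 bases after each RefSeq start, were the E2F motif in the forms TTTCCCGC, TTTCGCGC, TTTGCCGC and TTTGGCGC, the CCAAT box CCAAT, and the cell-cycle homology region (CHR) TTTGAA or TTCGAA. Of 32851 windows of this length, 2.26% hold the E2F motif, 37.4% a CCAAT box and 19.2% a CHR. No match below shares bases with another.
Cdc6, chr11:98908001-98908150, + strand, the bases up to the start, with an E2F match: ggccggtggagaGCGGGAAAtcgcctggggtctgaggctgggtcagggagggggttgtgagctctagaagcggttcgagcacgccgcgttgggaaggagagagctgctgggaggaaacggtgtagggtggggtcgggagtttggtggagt
Orc1, chr4:108579304-108579422, + strand, with a CCAAT box on either strand: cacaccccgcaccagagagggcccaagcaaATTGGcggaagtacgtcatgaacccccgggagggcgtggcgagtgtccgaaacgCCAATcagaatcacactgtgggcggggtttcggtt
Orc1, chr4:108579423-108579452, + strand, with an E2F match: agtgGCGCGAAAagttttctcctgtgcctt
Orc6, chr8:85299482-85299631, + strand, the bases up to the start, with a CCAAT box: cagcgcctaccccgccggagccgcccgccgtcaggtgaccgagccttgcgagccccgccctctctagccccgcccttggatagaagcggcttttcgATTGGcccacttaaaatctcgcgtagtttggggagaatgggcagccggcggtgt
Dbf4, chr5:8422714-8422743, - strand, around the start, with a CHR: ggcgccgcggtcgcgtgacgcgttTTCAAA

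The E2F match of *Cdc6* begins 138 bases before the RefSeq start and that of *Orc1* 27 bases before its RefSeq start, both on the opposite strand. The GENCODE coordinates given below begin earlier, at chr11:98907801 and chr4:108579423, so by them both matches lie inside the gene. The other 4 members with a promoter in the table (*Orc2*, *Orc6*, *Dbf4* and *Cdc7*) have no E2F match in these windows. *Orc2* has a CCAAT box in the window of each of its 2 starts and *Cdc7* a CHR in the window of each of its 2. A match is a description of the letters and not a bound site.

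Along the cycle, 4 of the 7 members varied with position in both cultures by the measure used, and they peaked in the order *Cdc6*, *Orc6*, *Gmnn*, *Dbf4*. The measure is the share of the variance of log2(value + 1) across cells (R²) that a periodic loess line on position explains, and a gene is called varying where R² reaches 0.05 in each culture. Over all 10666 genes, 416 (3.9%) are varying, or 4.93% of the 8333 genes detected in at least 5% of cells of each culture. The median over the 7 members of the lower R² of the cultures is 0.191, beside 0.0015 over all genes. The members were chosen for their part in replication, so a share above that of all genes is not read as a finding about them. The position was itself computed from cell-cycle genes. With a position recomputed from 500 cell-cycle genes in each culture, leaving out the members and every gene of the pathway lists below, the circular correlation with the deposited position was 0.934 and 0.896, and the same 4 members were varying.

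**Figure D1:**
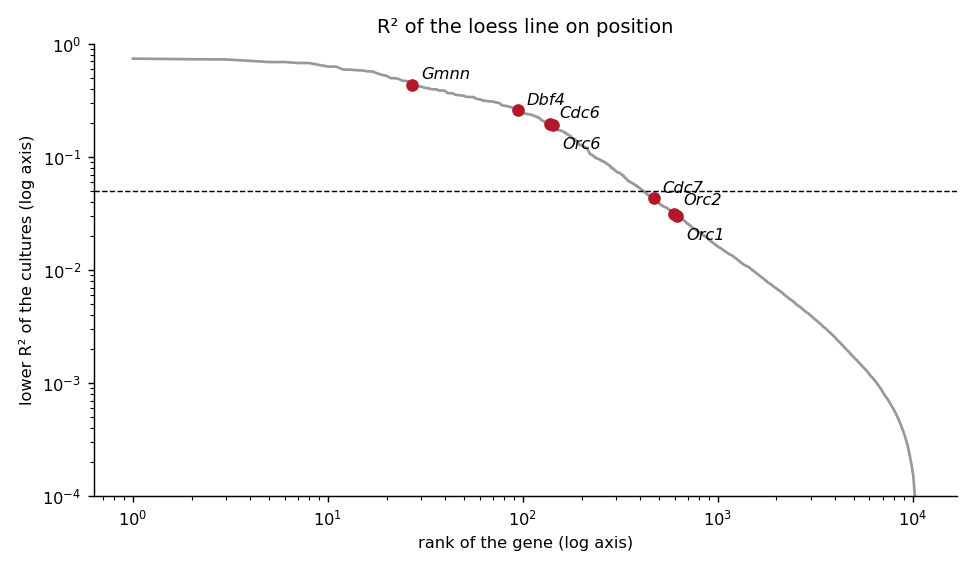
The lower R² of the 2 cultures for all genes by rank (grey line), with the 7 members as red points and the threshold of 0.05 dashed; both axes are logarithmic. *Gmnn* ranks 27, *Dbf4* 94, *Cdc6* 138 and *Orc6* 143, while *Cdc7* (468), *Orc2* (596) and *Orc1* (621) lie below the threshold.

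Levels are given on 2 scales. The deposited values enter as the mean of log2(value + 1). Within one gene and one culture, the values multiplied by the total UMIs of the cell fall in even steps, and 1 step was taken as 1 UMI: of values below 3.5 steps, 77.5% (*Orc6* in culture 1) to 95.5% (*Cdc7* in culture 2) lie within 0.15 of a step from a whole number. The size of a step differs between cultures, since 1 UMI of *Cdc6* in a cell of 10000 UMIs has a value of 1.5 in culture 1 and 2.38 in culture 2. The ratio of the step of culture 2 to that of culture 1 is 1.58 for *Cdc6*, 1.40 for *Orc6*, 1.34 for *Cdc7*, 1.32 for *Gmnn*, 1.13 for *Orc2*, 1.03 for *Orc1* and 0.923 for *Dbf4*, with a median of 1 and quartiles of 0.876 and 1.14 over 6032 genes. The deposited values therefore cannot compare a level between cultures, although the shape within a culture is kept. Levels are therefore also given as CPM, the recovered UMIs of a set of cells divided by their total UMIs and multiplied by 1000000. No level in CPM is compared between genes, and a ranking of members by share of cells with a value describes detection only.

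**Figure D2:**
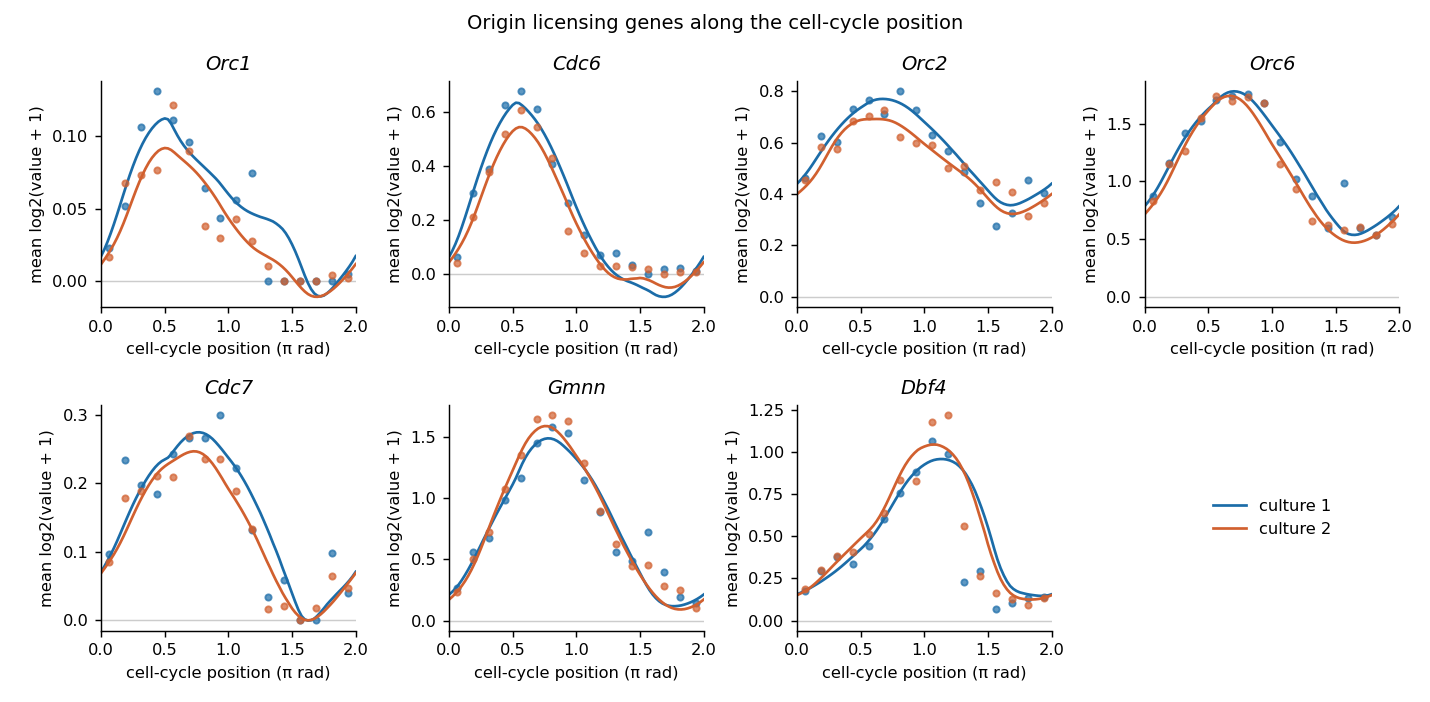
Mean log2(value + 1) against cell-cycle position (π rad) for each of the 7 genes, by culture. Points are means over 16 arcs and lines are periodic loess fits, which can dip slightly below 0 where nearly all cells are at 0. The lines of *Cdc6* peak at 0.535π and 0.555π, those of *Gmnn* at 0.78π and 0.755π and those of *Dbf4* at 1.135π and 1.08π.

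*Orc1* (ENSMUSG00000028587, chr4:108579423-108614833) encodes the largest ORC subunit, an ATPase. It was the least detected member, in 5.25% of cells of culture 1 and 2.44% of culture 2. Its level was 6.90 CPM in the arc from 0.25π to 0.5π and 5.71 in the next arc in culture 1, and 4.32 and 6.10 in culture 2. In the G1 arc from 1.75π to 2π it was 0.240 (8 UMIs) and 0.153 (7 UMIs), which is 28.8-fold below the highest arc in culture 1 (95% counting interval 13.6 to 70.1) and 39.8-fold in culture 2 (18.0 to 104). Both lines peaked at 0.505π, the earliest of the members. R² was 0.0300 and 0.0307, below the threshold, in a gene with a value in few cells.

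*Orc2* (ENSMUSG00000026037, chr1:58462771-58505109), a core ORC subunit, had the smallest fold in CPM between its highest arc and the G1 arc of the 7 members, although the line in log2(value + 1) was lower in height for *Orc1* (0.12 and 0.10) and *Cdc7* (0.28 and 0.25) than for *Orc2* (0.41 and 0.37). It went from 25.3 CPM in the G1 arc to 49.8 in the arc from 0.75π to 1π in culture 1, and from 22.2 to 46.6 (0.5π to 0.75π) in culture 2, which is 1.97-fold (1.80 to 2.15) and 2.10-fold (1.87 to 2.36). R² was 0.0508 in culture 1 and 0.0314 in culture 2, so it is called in culture 1 alone. *Orc6* (ENSMUSG00000031697, chr8:85299632-85308278), the smallest ORC subunit, was the most widely detected member, in 76.9% and 56.1% of cells. It reached 166 CPM from 0.5π to 0.75π and 163 in the next arc in culture 1, and 130 and 126 in culture 2. In the G1 arc it stood at 52.2 and 37.8, 3.18-fold (2.99 to 3.38) and 3.44-fold (3.19 to 3.71) lower. R² was 0.271 and 0.191, and the line peaked at 0.70π and 0.67π over a plateau of 2 arcs. *Orc2* and *Orc6* thus stayed well above 0 in every arc, *Orc2* at 45.9% of its maximum or more and *Orc6* at 29.1% or more. *Orc1* had 0 UMIs in the sparse arcs from 1.25π to 1.75π of culture 1, and 2 and 0 UMIs in those of culture 2. In the first of these arcs of culture 1, 3 UMIs would be 2.49 CPM. A 0 there cannot be told from the level of *Orc1* in the G1 arc.

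*Cdc6* (ENSMUSG00000017499, chr11:98907801-98923940), the ATPase that joins ORC to load the helicase, had the largest fold in CPM between its highest arc and the G1 arc of the 4 members that varied, but the smallest height of the line in log2(value + 1), 0.72 and 0.60, against 1.37 and 1.5 for *Gmnn*, 1.24 and 1.27 for *Orc6* and 0.81 and 0.92 for *Dbf4*. In culture 1 its level ran from 9.40 CPM in the arc from 0 to 0.25π through 38.7, 46.9 (0.5π to 0.75π), 21.8 and 7.74 to 0.869 in the G1 arc, and in culture 2 from 4.69 through 23.7, 30.5, 14.8 and 2.64 to 0.460. Cells with a value were 58.1% in the highest arc and 1.40% in the G1 arc of culture 1, and 37.8% and 0.667% in culture 2. The fold between these arcs was 54.0 (37.2 to 81.2) and 66.4 (42.5 to 109). The line peaked at 0.535π and 0.555π with R² of 0.257 and 0.198. Its rise was visible within the arc from 0 to 0.25π, which is 85.2% and 80.6% G1 and 14.8% and 19.1% S. Of 16 arcs, the one centred on 0.1875π (190 and 245 cells) held 21.1 and 10.9 CPM, against 4.37 and 2.05 in the one centred on 0.0625π. The stages of these finer arcs were not taken, and *Cdc6* is in the S gene list of Seurat, so a rise before S is not shown. The level of *Cdc6* fell to 46.6% and 48.6% of its maximum in the arc where *Gmnn* was at its highest.

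*Gmnn* (ENSMUSG00000006715, chr13:24751845-24761923), the geminin gene, had the highest R² of the members, 0.459 and 0.436. It rose from 25.4 CPM in the arc from 0 to 0.25π through 64.3 and 112 to 142 from 0.75π to 1π in culture 1, and from 18.4 through 55.5 and 109 to 122 in culture 2. It then fell to 85.1 and 71.2 from 1π to 1.25π and to 9.62 and 6.63 in the G1 arc, which is 14.8-fold (13.2 to 16.6) and 18.4-fold (16.2 to 20.9) below the maximum. At the maximum 91.8% and 86.5% of cells had a value. The line peaked at 0.78π and 0.755π, later than that of *Cdc6* by 0.245π and 0.20π. The comparison with *Cdc6* stands in for the planned one with *Cdt1* and was chosen after the table was seen.

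*Dbf4* (ENSMUSG00000002297, chr5:8396973-8422716), the activating subunit of the kinase, peaked last, at 1.135π and 1.08π, where nearly all cells are staged as G2M. Its level rose steadily from 12.5 CPM in the arc from 0 to 0.25π through 20.7, 30.6 and 50.4 to 72.8 (1π to 1.25π) in culture 1, and from 14.1 through 25.9, 38.1 and 58.9 to 96.0 in culture 2. It dropped in the next arc to 15.0 and 31.6, and stood at 7.67 and 8.69 in the G1 arc, 9.49-fold (8.32 to 10.9) and 11-fold (9.91 to 12.3) below the maximum. R² was 0.259 and 0.309. *Cdc7* (ENSMUSG00000029283, chr5:106964322-106984432), the catalytic subunit, followed another course: it was highest at 16.2 and 12.3 CPM from 0.75π to 1π, with the arc before it at 15.5 and 12.1, and had fallen to 11.8 and 8.23 where *Dbf4* was highest. Its line peaked at 0.765π and 0.73π, earlier than that of *Dbf4* by more than the difference between cultures in either gene. The fold over the G1 arc was 6.15 (4.87 to 7.85) and 4.88 (3.75 to 6.36), and R² was 0.0651 and 0.0431, so *Cdc7* too is called in culture 1 alone.

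**Figure D3:**
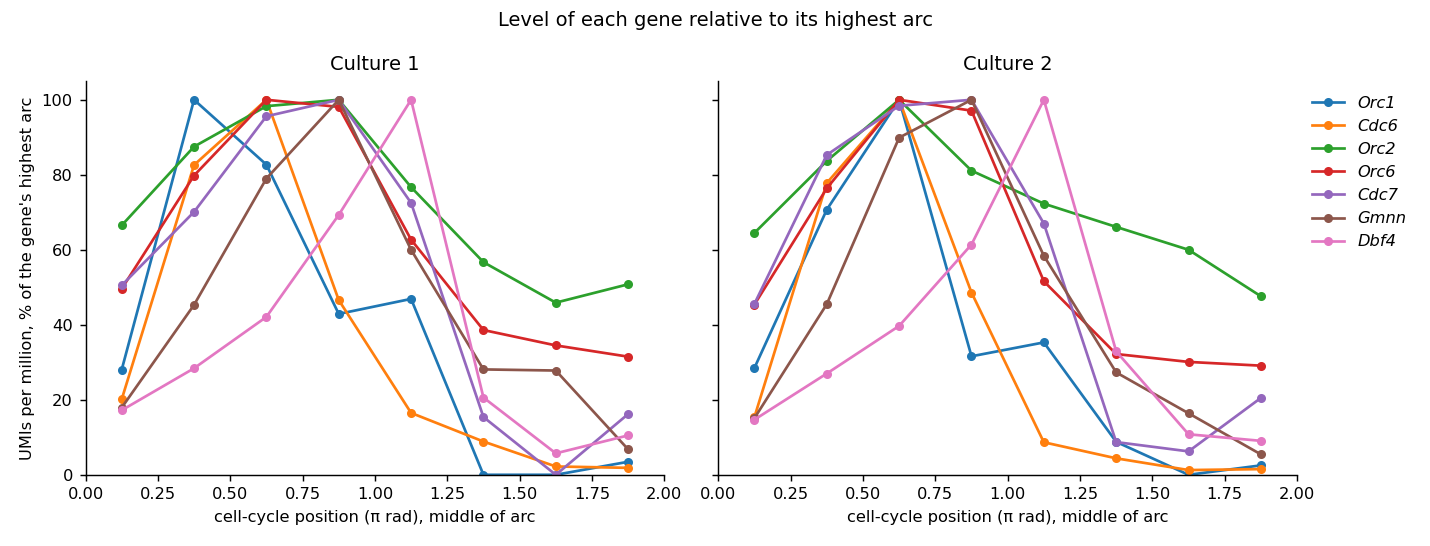
CPM in each of 8 arcs as a percentage of the gene's highest arc, against cell-cycle position (π rad), with 1 line per gene and 1 panel per culture. *Cdc6* is at 1.85% and 1.51% of its maximum in the last arc, where *Orc2* keeps 50.8% and 47.6% and *Orc6* 31.5% and 29.1%.

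The order of neighbouring peaks is firm only in part. *Cdc6*, *Gmnn* and *Dbf4* came in this order in both cultures and with each span of the loess tried. *Orc6* peaked before *Gmnn* with a span of 0.3 (0.685π and 0.768π as means of the cultures), but with a span of 0.1 they lay at 0.818π and 0.815π, and with 0.5 at 0.620π and 0.868π. *Orc1* peaked before *Cdc6* with spans of 0.1 and 0.3 and after it with 0.5 (0.603π against 0.593π). The means of *Orc2* (0.65π), *Orc6* (0.685π), *Cdc7* (0.748π) and *Gmnn* (0.768π) lie close together, and the step from *Orc2* to *Orc6* and that from *Cdc7* to *Gmnn* are no larger than the shift between the cultures.

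**Figure D4:**
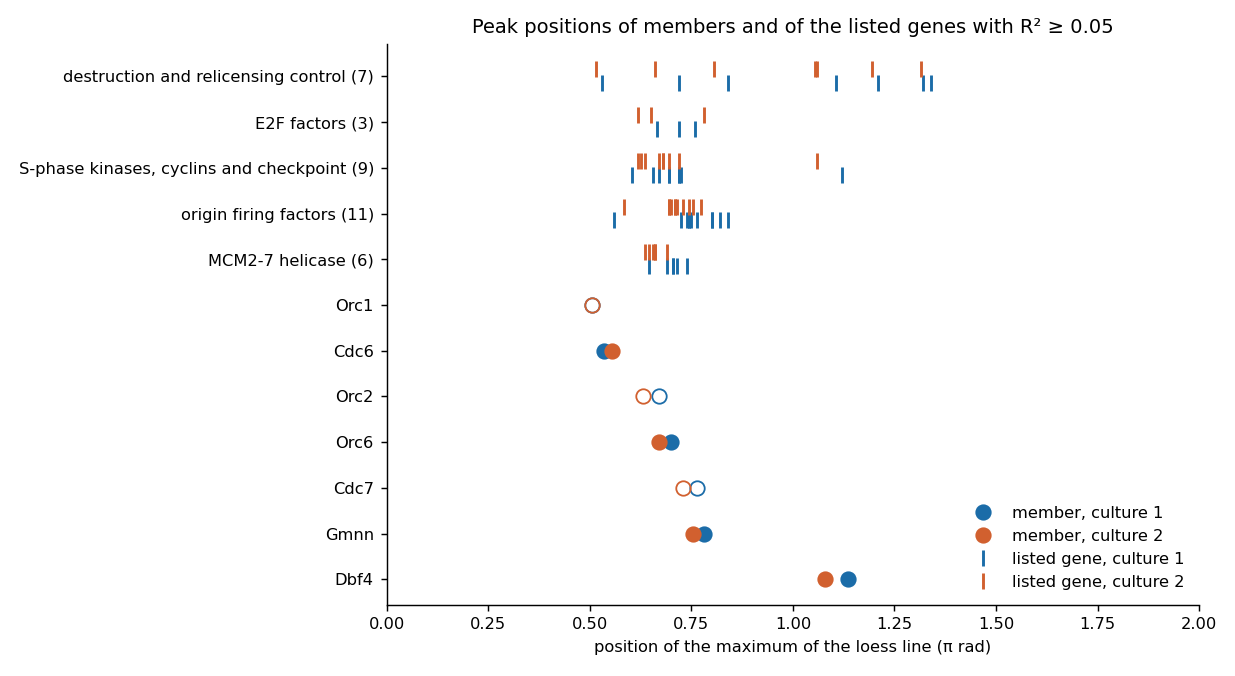
Position of the maximum of the loess line (π rad) by culture. Circles are the 7 members, open for genes below an R² of 0.05 in either culture, and ticks are the listed pathway genes that varied, with their number in brackets. MCM2-7 genes peak between those of *Cdc6* and *Gmnn*, and *Dbf4* stands apart from the other members.

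The wider pathway was read from lists of 51 genes with a row in the table, of which 36 varied (70.6%, against 3.9% of all genes). Of the other origin recognition and loading genes 0 of 6 varied, with a median lower R² of 0.00748, a count that a share of 3.9% would also give. The highest R² among them was that of *Mcmbp*, which encodes an MCM-binding protein, at 0.0304 and 0.0325 with peaks at 0.70π and 0.655π, and its rank of 611 lies between those of *Orc2* and *Orc1*. *Lrwd1* had 0.0175 and 0.0132 and *Kat7* 0.0170 and 0.0177. *Orc4*, a core ORC subunit in 43.5% and 28.0% of cells, had an R² of at most 0.00049, *Orc3* had 0.00257 and 0.000848 and *Orc5* 0.00174 and 0.00272, so that of the 6 ORC genes *Orc6* alone is called in both cultures. That call does not rank the ORC genes by how far their level moves. *Orc1*, detected in 5.25% and 2.44% of cells, is not called. Its fold over the G1 arc was nevertheless 28.8 and 39.8, against 3.18 and 3.44 for *Orc6*. All 6 subunits of the MCM2-7 helicase, the cargo of licensing, varied, with peaks from 0.640π to 0.715π as means of the cultures. The largest height of a line among them, the difference between its maximum and minimum in log2(value + 1), was that of *Mcm3*, 1.71 and 1.65, and *Mcm4* had the smallest, 0.99 and 0.73. Of 12 origin firing factors 11 varied, peaking from 0.573π to 0.788π, with *Mtbp* the exception (R² 0.0297 and 0.0240). *Wdhd1* was the earliest of them, and *Cdc45* and *Mcm10*, which build the active helicase and the replisome, both had a mean peak of 0.718π.

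Genes that destroy or restrain the licensing factors peaked at widely spread positions, and 7 of 10 varied. *Dtl*, which directs Cdt1 to ubiquitin ligation in S phase, peaked at 0.530π and 0.515π, next to *Cdc6*. *Skp2*, the F-box subunit of another ligase acting on Cdt1, followed at 0.72π and 0.66π. *Fbxo5*, an inhibitor of the anaphase-promoting complex (APC/C), peaked at 0.84π and 0.805π, shortly after *Gmnn*. *Ccnf*, an F-box gene whose product acts on Cdc6, came at 1.21π and 1.06π, and the APC/C activators *Fzr1* and *Cdc20* came last, at 1.32π and 1.195π and at 1.34π and 1.315π. The ligase scaffolds *Cul4a* and *Cul4b* and the adaptor *Ddb1* were flat, with R² of at most 0.00144. All 9 kinase, cyclin and checkpoint genes varied, *Ccne1* and *Ccne2* (cyclin E) at means of 0.665π and 0.638π and *Cdk1* at 1.09π, close to *Dbf4*. Of 8 E2F genes 3 varied: *E2f1* at 0.643π, *E2f2* at 0.685π and *E2f8* at 0.770π. In promoters, 11 of 28 varying and 4 of 12 other pathway genes with an entry hold the E2F motif, beside 19.5% of 343 varying and 4.44% of 7975 other genes of the whole table.

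The stage that the authors assigned with Seurat sets *Dbf4* apart from the other members, but it cannot order the members that are all highest in S. *Cdc6* and *Gmnn* also belong to the S gene list of that method, and their stage values are not independent of it. After thinning each cell to 10000 UMIs, which leaves out 353 and 635 shallower cells, *Cdc6* was present in 1.91% of G1, 31.0% of S and 8.46% of G2M cells in culture 1 and in 1.02%, 21.2% and 2.53% in culture 2 (without thinning 3.77%, 50.6% and 17.2%, and 1.65%, 30.4% and 4.44%). *Gmnn* stayed high into G2M, with 12.0%, 64.2% and 58.6% in culture 1 and 7.78%, 58.5% and 47.5% in culture 2. *Dbf4* was highest in G2M, at 45.6% and 49.2%, against 28.3% and 29.9% in S. *Orc1*, *Orc2*, *Orc6* and *Cdc7* are not in that S list and were highest in S in both cultures. The stages of cyclone, whose markers include *Cdc6*, *Gmnn*, *Orc1*, *Dbf4* and *Cdc7*, put only 133 and 56 cells in S, where *Cdc6* stood at 20.8 and 9.83 CPM against 17.8 and 7.05 in the cells called G1. The 5-stage assignment of the authors leaves 2451 and 3151 cells without a stage. It also scores cells on lists of stage genes, and whether the members are in them was not checked. With it, *Cdc6* was highest in G1.S (39.7 and 21.4 CPM) and *Gmnn* in S (116 and 80.9). By share of cells in culture 2, however, *Gmnn* was higher in G1.S (59.1%, and 47.0% after thinning) than in S (53.0% and 44.6%). *Dbf4* was highest in S in culture 1 (41.3 CPM) and in G2 in culture 2 (48.3), so its late peak is less clear in these stages than along the position.

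**Figure D5:**
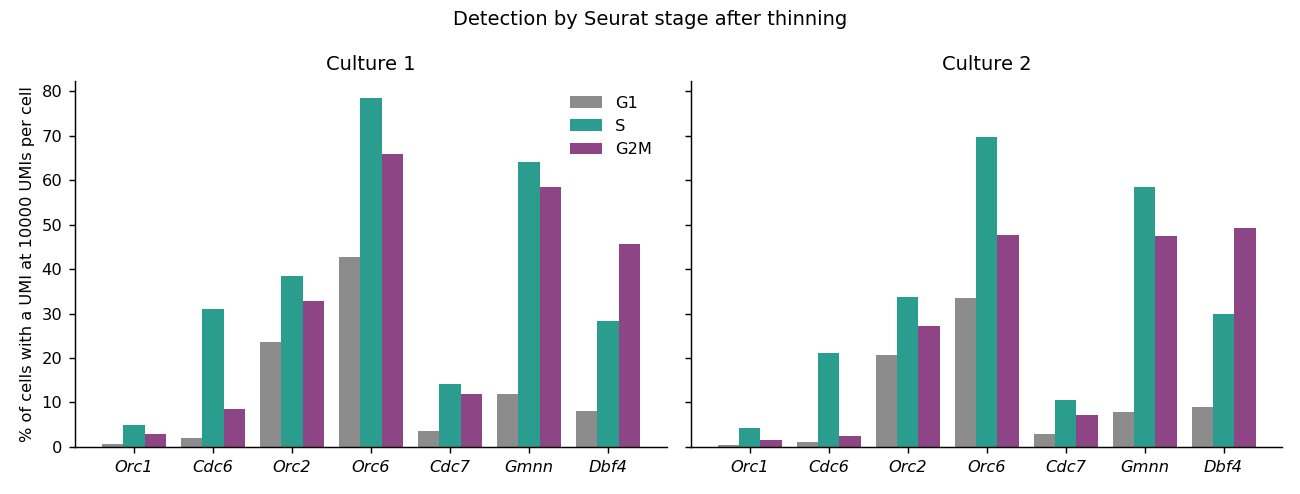
Share of cells (%) with at least 1 UMI of each gene expected after thinning to 10000 UMIs per cell, by Seurat stage and culture. Bars start at 0 and show no error. *Dbf4* is highest in G2M in both panels, and the other 6 genes are highest in S.

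Joint detection was read for *Cdc6* and *Gmnn*, a loader and the gene of the brake. Over all cells, 82.8% of cells with *Cdc6* also had *Gmnn* in culture 1 (exact 95% interval 80.6% to 84.8%) against 47.4% of those without (45.9% to 48.8%), and in culture 2 72.8% (69.0% to 76.4%) against 32.5% (31.4% to 33.7%). Both genes are high in the same arcs, so the shares were also taken within arcs. Within the arc from 0.5π to 0.75π the shares were 88.1% (84.6% to 91.1%) against 80.8% (75.9% to 85.1%) in culture 1 and 88.4% (83.1% to 92.5%) against 77.6% (72.7% to 82.0%) in culture 2, and cells with *Cdc6* were also deeper there, with medians of 21200 against 19000 UMIs and 16100 against 15400. Within the arc from 0.25π to 0.5π they were 79.5% against 62.7% in culture 1 and 60.5% against 59.9% in culture 2, so the difference in that arc was not seen in both cultures. Cells with *Cdc6* were deeper in that arc too, with medians of 21400 against 16600 UMIs in culture 1 and 15800 against 14500 in culture 2. In the later arcs the intervals overlapped in both cultures, with 94.3% against 90.3% and 89.9% against 85.5% from 0.75π to 1π, and 80.3% against 77.6% and 73.6% against 68.5% from 1π to 1.25π. In the arc from 0 to 0.25π the shares were 40.9% against 30.2% and 37.5% against 22.3%, and in the G1 arc, with 25 and 21 cells holding *Cdc6*, they were 32.0% against 15.6% in culture 1 and 4.76% against 8.66% in culture 2. For the subunits of the kinase, 55.6% of all cells with *Cdc7* also had *Dbf4* in culture 1 against 36.1% of those without, and 48.5% against 29.5% in culture 2. In the arc from 1π to 1.25π, where *Dbf4* is highest, the shares were 78.3% (72.6% to 83.3%) against 69.4% (66.1% to 72.5%) in culture 1, with medians of 25500 against 19300 UMIs, and 79.3% (72.0% to 85.5%) against 75.7% (72.8% to 78.3%) in culture 2. In the arc from 0.75π to 1π, 71.4% of cells with *Cdc7* also had *Dbf4* in culture 1 against 65.3% of those without, and 64.4% against 61.8% in culture 2, with overlapping intervals (66.1% to 76.3% against 61.6% to 68.9%, and 54.2% to 73.6% against 57.1% to 66.3%). In the 3 arcs before 0.75π cells with *Cdc7* had the lower share with *Dbf4* in culture 1 (43.5% against 45.7% from 0.5π to 0.75π) and the higher share in culture 2 (53.5% against 44.2%), with overlapping intervals in each. The part of depth in these differences was not tested, and no group of cells known to lack these genes was set apart to give a background.

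Between the cultures, *Dbf4* was nearly equal over all cells (33.9 and 34.0 CPM), whereas the others were higher in culture 1: *Cdc6* at 15.7 against 6.36 (2.46-fold), *Orc1* 1.70-fold, *Cdc7* 1.68-fold, *Orc6* 1.67-fold, *Gmnn* 1.66-fold and *Orc2* 1.26-fold. The cultures differ in the share of cells in each arc, so the same ratio was taken within arcs. In the arc from 0.5π to 0.75π it was 1.02 for *Gmnn*, 1.05 for *Orc2*, 1.28 for *Orc6* and *Cdc7*, and 0.936 for *Orc1*, but still 1.54 for *Cdc6*. In the arc from 1π to 1.25π *Dbf4* was lower in culture 1, at a ratio of 0.758. The ratio was above 1 in every arc for *Gmnn* and *Orc6*, and in every arc that gives a ratio for *Cdc6* and *Cdc7*. For *Cdc6* the arc from 1.5π to 1.75π has 1 UMI in each culture and gives no ratio, and that from 1.25π to 1.5π rests on 5 UMIs in each. With 1 library per culture, a difference between cultures and one between libraries cannot be told apart.

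The genes whose profiles are most like those of the members were taken from 6896 genes detected in at least 10% of cells of each culture, by Pearson's r over the means of 16 arcs, with the lower value of the cultures given. The arcs share cells, depth and normalisation, so r describes likeness of shape only. For *Cdc6* they were *Ung* (r = 0.977), *Hells* (0.948) and *Gpr180* (0.935), where *Ung* removes uracil from DNA and *Hells* is a chromatin remodeller. *Gmnn* was most like the replication genes *Lig1* (0.981), *Pold1* (0.974) and *Prim1* (0.970), which encode DNA ligase I, the catalytic subunit of polymerase delta and the primase. *Orc6* was most like the flap endonuclease gene *Fen1* (0.982), *Atad2* (0.975) and *Eri1* (0.972). *Dbf4* was most like *Sgo2a* (0.973), *Kif20b* (0.972) and *Eri2* (0.970), the first of which protects centromeric cohesion and the next of which is a mitotic kinesin. The members below the R² threshold were *Orc1*, most like *Cdca7* (0.928), *Hells* (0.913) and *Cdc25a* (0.910), *Orc2*, most like *Rpa2* (0.944), *Topbp1* (0.938) and *Fignl1* (0.935), and *Cdc7*, most like *Etaa1* (0.946), *Nup62* (0.944) and *Meaf6* (0.933).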

How the data were processed

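Single-cell RNA-seq of 2 neurosphere cultures was taken from the tables the authors deposited. By the methods and the submitters' processing notes, spliced reads were quantified with alevin (Salmon 1.3.0) on GRCm38, outlying cells were removed by depth, detected genes, mitochondrial reads and doublet score, values were normalized for library size, and cultures were integrated with Seurat 3.2.2. The expression values are a signal on a linear scale as deposited. The authors deposited total UMIs for each cell, which are summed estimated counts, and the position and stages are other values the authors deposited. All deposited cells were kept, and doublets were left as the authors treated them. Each per-sample column was mapped to a culture.

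Periodic loess lines (degree 2, span 0.3, tripled data, 401 positions) of log2(value + 1) were fitted within each culture for all genes, and a gene was called varying at R² of at least 0.05 in both. UMIs were recovered from value steps, and shares after thinning to 10000 UMIs were computed from them, both chosen after the data were seen. The members were named in full, pathway genes by list, and for each member the 3 other genes of highest likeness. The members and lists were chosen with earlier results of these data known. Intervals are exact 95% binomial intervals, or conditional binomial ones for folds, and cover counting error only. The loess step was tested on simulated data. Coordinates are from GENCODE vM21 on GRCm38, and the authors used a later release. Alternatives were other spans, thresholds, a pseudocount of 0.1, a recomputed position, a window of total UMIs, harmonics with and without depth, a filter on low genes and each culture alone. Lines were fitted in Python 3.11.15 (numpy 2.4.6), intervals came from scipy 1.17.1, and cell-cycle gene lists from R 4.3.3 (Seurat 5.3.0, scran 1.30.0). Protein sequences were not used here. The methods and the labels name different versions of the kit.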

Additional observations from a re-analysis of the deposited data

How the results depend on the processing

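With each alternative fit, span, pseudocount and position, with the window of total UMIs (15018 to 17565, 809 and 1472 cells) and with recovered UMIs, 4 members varied. Peak positions were less stable. Mean peaks shifted by more than the standard deviation of the cultures in 7 members with the recomputed position and in 4 with the window. They did so in 6 with a span of 0.1, in 5 with a span of 0.5 and in 2 with the pseudocount of 0.1. This standard deviation is of 2 values and is 0 for *Orc1*, so any shift of *Orc1* counts. With the recomputed position *Dbf4* went from 1.107π to 1.042π, and in the window *Orc2* peaked at 0.835π and 0.54π. An R² of at least 0.02 gave 7 members and 853 genes, and one of at least 0.1 gave 232 genes and 23 pathway genes. With each culture alone, 4 to 6 members, 441 to 576 genes and 36 to 37 pathway genes varied, *Orc2* and *Cdc7* being added in culture 1. *Gmnn* peaked after *Cdc6* by 0.223π as a mean of the cultures and by 0.275π with a span of 0.5, and by 0.20π to 0.245π with each culture alone. The cause was not tested. With a span of 0.5 the heights of all 7 lines were lower, and with a pseudocount of 0.1 all 7 were larger. The gap from *Cdt1* to *Gmnn* and their joint detection were not run, since *Cdt1* is not analysed here. *Orc1* had the fewest recovered UMIs of the members, 320 and 175, so its folds carry the widest counting intervals. No paired analysis was possible because there is only 1 group.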
